A study of Mus musculus with 27 samples.

Results

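Loss of Keap1 was examined in the whole esophagus at postnatal day 7 (P7), on 3 arrays of Keap1-/- mice and 3 arrays of wild-type (WT) mice, 6 of the 27 arrays of the series, chosen by genotype and age as labelled. WT mice were C57BL/6J and Keap1-/- mice carried the null allele on the C57BL/6J background, in every cell of the body. Nrf2-/- and Nrf2-/-Keap1-/- esophagi of the same age and background, 3 arrays each, and 3 arrays of adult WT esophageal epithelium are used for comparison only. RNA of each esophagus was labelled with Cy5 and hybridized together with Agilent's Universal Mouse Reference RNA, a pool from mouse cell lines, in Cy3, so every level below is a log2 ratio of esophagus over reference RNA, where 0 means equal signal and 1 unit is a 2-fold difference. In whole tissue, fewer cells of a type and less RNA per cell cannot be told apart.

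The 3 Keap1-/- arrays were hybridized on a slide of their own, scanned in a different run and read with a later software version than the 3 WT arrays, so genotype, slide, scan and software version cannot be told apart. The median Cy3 signal was 115 to 147 on the Keap1-/- arrays and 223 to 231 on the WT arrays, and 1.85 to 3.72% of spots against 8.83 to 12.2% were marked as outliers; these spots were kept. The X-inactivation transcript Xist read 1.41, 1.46 and 1.01 on the WT arrays and -2.64, -2.80 and -2.88 on the Keap1-/- arrays, while Y-linked Eif2s3y read -3.03, -2.85 and -3.46 against 2.27, 2.46 and 2.37. The WT mice therefore read as females and the Keap1-/- mice as males, and sex and genotype cannot be told apart either. The 28 tested liver markers averaged 2.04, 3.92 and 2.35 on the WT arrays and -0.05, 0.30 and 0.23 on the Keap1-/- arrays, and 8 stomach markers averaged 4.21, 2.13 and -0.08 against 0.03, 0.00 and 0.02. The 10 squamous epithelial markers, which define the tissue, averaged 4.10 to 4.72 in WT and 4.25 to 4.56 in Keap1-/- esophagi, and the groups overlapped.

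Keap1 is the adaptor through which a cullin-3 ubiquitin ligase marks the transcription factor Nrf2 (gene Nfe2l2) for degradation. Oxidants and electrophiles modify cysteines of Keap1, Nrf2 then escapes degradation, pairs with a small Maf protein and binds antioxidant response elements in the promoters of genes for glutathione synthesis, detoxification and NADPH supply. The esophagus is lined by a stratified squamous epithelium whose outer cells cornify, and Keap1-/- mice are known for thickened, hyperkeratotic esophagus and forestomach and die as pups.

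Of 18441 tested genes, 6203 (33.6%) differed between Keap1-/- and WT at an adjusted p of 0.05 or lower (limma with Benjamini-Hochberg adjustment), called below. Of these, 2864 (15.5%) were higher and 3339 (18.1%) were lower in Keap1-/- esophagi, and 740 higher (4.01%) and 800 lower genes (4.34%) had changed at least 2-fold. The 15.5% and 18.1% are the shares against which the counts of every list below are to be read. The 3 arrays of one genotype lay wholly above or below the 3 of the other for 8375 genes (45.4%), above in 20.9% and below in 24.6% of the tested genes. With each array centred on its median instead of loess, 7833 genes were called, 65.5% of them higher instead of 46.2%, as the median difference over all genes moved from -0.02 to 0.10. The number of arrays limits the precision of every value. A fit over all 27 arrays with the software version as a block, added after the data were seen, rests on a single adult WT array that was read with the later version. It called 1517 genes, 854 higher and 663 lower, and its counts are given below as those of the version block.

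**Figure D1:**
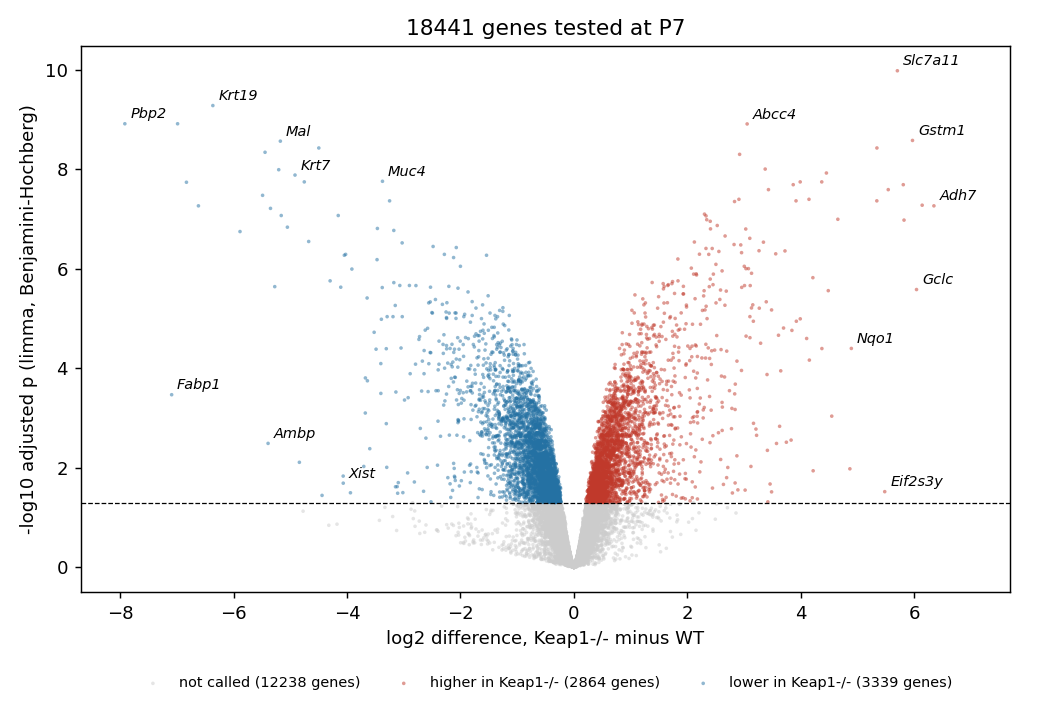
Difference between Keap1-/- and WT esophagus at P7 for 18441 genes. The x axis is the fitted log2 difference (3 arrays against 3), the y axis is -log10 of the limma adjusted p, and the dashed line marks an adjusted p of 0.05; red points are 2864 higher genes, blue points 3339 lower genes, with single genes labelled. The largest decrease, Pbp2 at -7.92, lay farther from 0 than the largest increase, Adh7 at 6.35.

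The targeted gene itself differed little. The single Keap1 probe read 0.54, 1.00 and 0.42 in WT and -0.26, 0.22 and 0.64 in Keap1-/- esophagi, and the groups overlapped. The difference of -0.45 ± 0.22 (SE) was not called (limma adjusted p = 0.144). Whether the probe lies in the deleted part of Keap1 is not known here, so it does not check the genotype. Keap1 was called lower without Keap1-/- replicate 3 (-0.67, adjusted p = 0.0445). Nfe2l2, averaged over 4 probes whose signs differed, read -0.29, -0.01 and -0.52 in WT and -0.45, -0.30 and -0.32 in Keap1-/- esophagi, with a difference of -0.08 ± 0.13 (adjusted p = 0.674). Its level did not separate the groups, and without WT replicate 2 the difference was 0.06.

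Among 13 tested regulators of the pathway, 5 were called higher and 1 lower. Mafg, a small Maf partner of Nrf2, read -0.09, -0.36 and -0.09 in WT and 1.81, 2.18 and 2.36 in Keap1-/- esophagi. The groups did not overlap, and Mafg rose 4.92-fold (adjusted p = 2.78e-06). Bach1, a repressor that competes with Nrf2 for the same elements, rose by 1.05 ± 0.23 (adjusted p = 0.00585), and Nfe2l1, a related factor known for inducing proteasome genes, by 0.96 ± 0.17 (adjusted p = 0.00161). Sqstm1, which encodes a Keap1-binding autophagy receptor, rose by 0.62 and Bach2 fell by 0.49 on the log2 scale. Mafk, a further small Maf, differed by 0.78 (adjusted p = 0.0173), and its call was lost without WT replicate 2 (0.65) or Keap1-/- replicate 2 (0.70) or 3 (0.63). The version block called 1 regulator, Mafg, higher.

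The promoters of 6 genes that rose are shown because each holds a match to the antioxidant response element core TGACNNNGC, searched on both strands in the 250 bases before the transcription start. The sequences are those of RefSeq on GRCm38.p6, in the direction of the gene, in lower case with the match in capitals. Gclm (chr3:122245307-122245556, plus strand) has the match 134 to 126 bases before the start, Txnrd1 (chr10:82858956-82859205, plus strand) 92 to 84, Prdx1 (chr4:116685349-116685598, plus strand) 133 to 125, Gsta3 (chr1:21240335-21240584, plus strand) 121 to 113, G6pdx (chrX:74428881-74429130, minus strand) 57 to 49 and Mafg (chr11:120633548-120633797, minus strand) 222 to 214. In Gsta3 the match reads along the gene, and in the others it lies on the opposite strand and so appears as GCNNNGTCA.
Gclm: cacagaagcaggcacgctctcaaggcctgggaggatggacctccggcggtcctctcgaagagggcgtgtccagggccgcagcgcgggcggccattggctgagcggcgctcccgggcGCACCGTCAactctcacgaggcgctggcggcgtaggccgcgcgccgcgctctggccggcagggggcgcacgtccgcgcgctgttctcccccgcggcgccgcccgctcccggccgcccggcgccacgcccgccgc
Txnrd1: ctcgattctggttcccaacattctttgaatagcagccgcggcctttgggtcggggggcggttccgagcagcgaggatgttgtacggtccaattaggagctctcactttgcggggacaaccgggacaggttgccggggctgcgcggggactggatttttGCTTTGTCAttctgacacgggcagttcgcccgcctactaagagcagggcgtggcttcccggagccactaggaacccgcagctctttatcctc
Prdx1: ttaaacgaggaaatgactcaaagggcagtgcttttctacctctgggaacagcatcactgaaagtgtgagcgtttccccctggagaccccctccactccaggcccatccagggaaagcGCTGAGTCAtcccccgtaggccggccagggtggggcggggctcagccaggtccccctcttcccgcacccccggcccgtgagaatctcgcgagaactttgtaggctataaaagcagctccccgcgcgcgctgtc
Gsta3: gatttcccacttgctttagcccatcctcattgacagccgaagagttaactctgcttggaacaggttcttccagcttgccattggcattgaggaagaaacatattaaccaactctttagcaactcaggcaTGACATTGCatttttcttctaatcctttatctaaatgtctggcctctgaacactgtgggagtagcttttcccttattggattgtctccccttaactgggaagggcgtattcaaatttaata
G6pdx: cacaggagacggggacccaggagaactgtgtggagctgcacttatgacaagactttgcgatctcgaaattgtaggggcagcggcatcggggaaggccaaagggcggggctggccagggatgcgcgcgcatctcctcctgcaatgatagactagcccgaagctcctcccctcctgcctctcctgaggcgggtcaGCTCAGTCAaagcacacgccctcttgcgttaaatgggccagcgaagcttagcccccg
Mafg: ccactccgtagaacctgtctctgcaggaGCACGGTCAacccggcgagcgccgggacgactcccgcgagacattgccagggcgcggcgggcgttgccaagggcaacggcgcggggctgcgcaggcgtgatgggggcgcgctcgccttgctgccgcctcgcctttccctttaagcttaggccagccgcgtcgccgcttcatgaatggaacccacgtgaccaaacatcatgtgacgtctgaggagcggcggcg

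Over all 32851 promoter windows of the RefSeq table, 3338 (10.2%) held the 9-base core. It was present in 331 of 2631 windows of genes called higher (12.6%), 343 of 2955 windows of genes called lower (11.6%) and 1137 of 10427 windows of genes not called (10.9%). Among genes called and at least 2-fold higher the share was 14.5% of 683 windows, and among those at least 2-fold lower 11.9% of 687. The cytoprotective lists described next held 68 higher genes, 58 of them with a window, and 14 of their 80 windows (17.5%) held the core, in 12 genes. Among the other tested genes of these lists, 8 of 65 windows (12.3%) held it. Txnrd1 has 3 windows, of which only the 1 shown held the core. The windows of Nqo1, Srxn1, Gstm1 and Gstm3 held no match, which says only that these letters are not within that stretch, and Gclc, Hmox1, Aldh3a1 and Abcc1 had no window in the table. A match is a description of sequence, not a binding site.

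Glutathione synthesis showed some of the largest increases. Of 12 tested genes for glutathione synthesis and cystine uptake, 9 were called higher and 1 lower, with a median difference of 2.06 against -0.02 over all tested genes. Gclc, the catalytic subunit of the rate-limiting enzyme, read 0.10, 0.34 and -0.76 in WT and 5.83, 5.84 and 6.13 in Keap1-/- esophagi. The groups lay far apart, a 66.0-fold increase (log2 difference 6.04 ± 0.41, adjusted p = 2.63e-06). Gclm, the modifier subunit, read -0.58, -0.53 and -0.67 against 3.01, 2.53 and 2.71, a 10.2-fold increase (adjusted p = 2.94e-07). Slc7a11, the cystine transporter that feeds the pathway, was not well above background in Cy5 on any WT array, where it read -0.60, -0.69 and -0.74, and read 4.90, 4.99 and 5.21 on the Keap1-/- arrays. It was at least 44.7-fold higher (adjusted p = 1.06e-10), the smallest of 3 measures of its fold, as for every such bound below. Slc3a2, the partner chain of that transporter, rose by 2.51, Gss, which joins glycine to complete glutathione, by 3.13, and Gsr, which returns oxidized glutathione to the reduced form, by 2.45. Chac2, which degrades glutathione, fell by 1.13 on the log2 scale. The version block called 8 genes of the list higher and 1 lower.

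**Figure D2:**
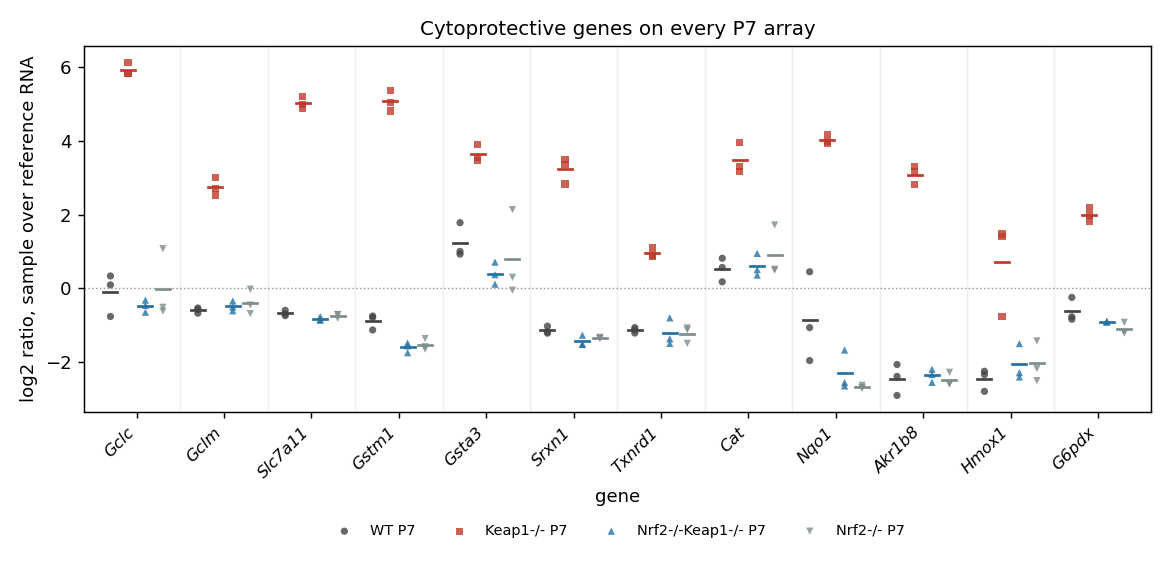
Cytoprotective genes on the 12 P7 arrays. The y axis is the log2 ratio of esophagus over reference RNA; each point is 1 array, each short bar the mean of 3 arrays, and the 4 genotypes are distinguished by colour and shape. For each of the 12 genes the 3 Keap1-/- arrays lay above every WT, Nrf2-/-Keap1-/- and Nrf2-/- array, as for Gclc with 5.83 to 6.13 against -0.76 to 0.34 in WT.

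Glutathione S-transferases couple glutathione to electrophiles. Of 24 tested, 14 were called higher and 2, Gstt3 and Gstk1, lower. Gstm1 read -0.75, -0.79 and -1.13 in WT and 4.82, 5.05 and 5.38 in Keap1-/- esophagi, a 62.8-fold increase (adjusted p = 2.66e-09). Gstm3 read -1.32, -1.31 and -1.97 against 4.40, 4.72 and 4.71, a 70.7-fold increase (adjusted p = 5.32e-08). Both mu class genes were thus below the reference RNA in WT and well above it in every Keap1-/- esophagus. Gstp1, the pi class gene, rose 10.8-fold, Gstm6 8.18-fold, and the membrane-bound Mgst1 by 2.84 on the log2 scale. Members of the mu class are similar in sequence, so probes of one may also read another. The alpha class genes were already above the reference in WT: Gsta1 read 4.10, 3.49 and 3.13 in WT and 6.01, 5.64 and 5.91 in Keap1-/- esophagi, an increase of 2.28 ± 0.34 (adjusted p = 0.000688), Gsta3 rose by 2.40 and Gsta2 by 1.44. Under the version block 8 genes were called higher and none lower, and Gsta1, Gsta2 and Gsta3 were no longer called.

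Of 26 thioredoxin, peroxiredoxin and peroxidase genes, 11 were called higher and 3 lower. The share of lower genes was smaller than the 18.1% over all tested genes. Srxn1, sulfiredoxin, which repairs overoxidized peroxiredoxins, read -1.18, -1.03 and -1.22 in WT and 2.83, 3.37 and 3.49 in Keap1-/- esophagi, a 20.7-fold increase (adjusted p = 1.81e-08). Cat, catalase, which removes hydrogen peroxide, read 0.57, 0.18 and 0.82 against 3.95, 3.31 and 3.17, a 7.76-fold increase (adjusted p = 0.000111). For both genes the groups did not overlap. Txnrd1, thioredoxin reductase, rose 4.27-fold, the peroxiredoxin Prdx1 4.52-fold, and thioredoxin itself, Txn1, by 1.85 on the log2 scale. The 3 lower genes were Gpx8, Gpx7 and Prdx4, whose products work in the endoplasmic reticulum, and they fell by 1.30, 0.84 and 0.67. Of this list, 6 genes were called higher and 1 lower with the version block.

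Of 20 tested enzymes that act on quinones, carbonyls and epoxides 9 were called higher and none lower. Nqo1, which reduces quinones and is a standard readout of Nrf2, read 0.45, -1.06 and -1.96 in WT and 3.95, 3.99 and 4.18 in Keap1-/- esophagi. The WT arrays were spread over more than 2 log2 units while the Keap1-/- arrays were close together, and the increase was 29.7-fold (adjusted p = 4.01e-05). Akr1b8, an aldo-keto reductase, read -2.07, -2.39 and -2.91 against 2.82, 3.30 and 3.16, a 46.7-fold increase (adjusted p = 2.59e-08). Ptgr1, which reduces prostaglandins and reactive alkenals, rose 15.2-fold, and the carbonyl reductases Cbr3 8.06-fold and Cbr1 by 2.52 on the log2 scale. Ephx1, an epoxide hydrolase, rose by 2.16. The list also had 9 higher genes with the version block.

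Called genes for NADPH supply and for heme and iron were mostly higher. Of 12 genes listed for NADPH supply 7 were called higher and 1, Me2, lower. G6pdx, the entry enzyme of the pentose phosphate pathway, read -0.77, -0.24 and -0.84 in WT and 1.83, 1.98 and 2.18 in Keap1-/- esophagi, a 6.12-fold increase (adjusted p = 1.11e-06). Pgd and Taldo1 of the same pathway were 5.02-fold and 2.85-fold higher, and malic enzyme Me1, which is not part of it, was 3.11-fold higher. Of 11 heme and iron genes 5 were called higher and 1, Fech, lower. Hmox1, heme oxygenase, read -2.25, -2.34 and -2.79 in WT and -0.75, 1.48 and 1.40 in Keap1-/- esophagi. Keap1-/- replicate 1 lay about 2 log2 units below the other Keap1-/- arrays but still above every WT array, and the increase was 3.17 ± 0.53 (adjusted p = 0.00128). Blvrb, biliverdin reductase B, rose 8.59-fold, the heme transporter Slc48a1 3.82-fold, and the ferritin light chain Ftl1 by 1.00 on the log2 scale. The fifth, Hmox2, rose by 0.42.

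All 4 metallothioneins, small cysteine-rich proteins that bind zinc and copper, were called higher. Mt2 read -1.09, -1.61 and -2.46 in WT and 2.38, 1.68 and 1.61 in Keap1-/- esophagi, a 12.2-fold increase (adjusted p = 2.18e-05). Mt1 rose 5.17-fold and Mt3 3.80-fold. Mt4, the form of stratified squamous epithelia, read 2.82, 3.24 and 0.60 in WT and 6.49, 6.22 and 6.61 in Keap1-/- esophagi (difference 4.22, adjusted p = 0.0115). Its Cy3 signal was 3.57 log2 units higher on the Keap1-/- arrays too, and the part of this in the ratio was not tested. Mt4 was not called from the deposited log ratios or with the version block.

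Of 6 tested Abcc export pumps 4 were called higher. Abcc4, which exports conjugates and cyclic nucleotides, read -0.63, -0.58 and -0.68 in WT and 2.40, 2.38 and 2.50 in Keap1-/- esophagi, an 8.32-fold increase with little spread (SE 0.07, adjusted p = 1.24e-09). Abcc1 rose 5.20-fold, Abcc3 4.13-fold and Abcc5 by 0.37 on the log2 scale, a call lost without any one of 4 arrays (0.284 to 0.361). The 2 probes of Abcc3 gave differences of 0.30 and 3.79, so its fold is the average of unlike probes. Of 32 genes for glucuronidation, sulfation and ester hydrolysis 11 were called higher and none lower, 8 of which were carboxylesterases. Ces1f was not well above background on any WT array and read 5.18, 5.05 and 5.24 on the Keap1-/- arrays, at least 40.7-fold higher (adjusted p = 3.77e-09). Ces1g was at least 14.6-fold higher. Ces1h read 0.01, 0.91 and 0.09 in WT and 6.37, 5.90 and 6.18 in Keap1-/- esophagi (adjusted p = 2.06e-08), and its Cy3 signal was also 4.45 log2 units higher on the Keap1-/- arrays. The Ces1 genes form a cluster of similar sequence, so single members are uncertain. The version block called 3 pumps and 5 genes of the conjugation list higher.

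Called aldehyde dehydrogenases and retinoid enzymes included higher and lower genes. Of 21 aldehyde dehydrogenases 7 were called higher and 4, Aldh1a3, Aldh1a2, Aldh6a1 and Aldh3a2, lower. Over all tested genes 15.5% were called higher and 18.1% lower, and the share of lower genes in this family was near the latter. Aldh3a1, which oxidizes aldehydes in stratified epithelia such as the cornea, was not well above background on any WT array and read 3.64, 3.24 and 3.71 on the Keap1-/- arrays, at least 18.6-fold higher (adjusted p = 1.52e-06), with a Cy3 signal 2.84 log2 units higher. Aldh1a1 and Aldh1a3 both make retinoic acid: Aldh1a1 rose 7.14-fold, whereas Aldh1a3 read 3.40, 4.04 and 4.03 in WT and 2.25, 1.70 and 1.48 in Keap1-/- esophagi and fell by 2.01 ± 0.21 (adjusted p = 6.75e-05). The 2 probes of Aldh1a3 gave differences of -3.33 and -0.70. Adh7, which oxidizes retinol and ethanol in upper digestive epithelia, showed the largest fitted increase among the called genes. It read 0.04, 1.06 and -0.01 in WT and 6.86, 6.54 and 6.74 in Keap1-/- esophagi, an 81.6-fold difference (adjusted p = 5.48e-08). Cyp26b1, which degrades retinoic acid, rose 20.7-fold (adjusted p = 4.03e-05), and Sdr16c5, a retinol dehydrogenase, by 3.70; the call of Sdr16c5 was lost with the signals processed by the scanner software. Of 59 cytochrome P450 genes 6 were called higher and 7 lower, smaller shares than over all tested genes; the 7 became 4 without Keap1-/- replicate 2, 16 with the processed signals and 0 with the version block. Cyp2a5, which is known to be inducible through Nrf2 in liver, fell by 2.39 ± 0.27 (adjusted p = 0.000108). With the version block 2 cytochrome P450 and 4 aldehyde dehydrogenases were called higher and none of either lower.

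Of 38 tested proteasome subunits 18 were called higher and 3 lower, with a median difference of 0.36. Lower subunits were a smaller share than the 18.1% over all tested genes. Psmb5, a catalytic subunit, read -0.27, -0.50 and -0.30 in WT and 0.94, 1.08 and 1.29 in Keap1-/- esophagi, a 2.75-fold increase (adjusted p = 3.70e-05). The regulatory subunit Psmc5 rose 2.65-fold. Among the 3 lower genes, Psmb9, Psma1 and Psmc6, Psmb9 is the interferon-inducible form of a catalytic subunit. With the version block 8 subunits were called higher and none lower. Over the 274 tested genes of a published Nrf2 and Keap1 pathway list collected by the study, 76 were called higher and 47 lower, with a median difference of 0.03 against -0.02 over all tested genes. The share of higher genes was above the 15.5% over all tested genes, and that of lower genes was near the 18.1%. The counts of the list were 46 and 8 with the version block and 112 and 30 with median centring.

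**Figure D3:**
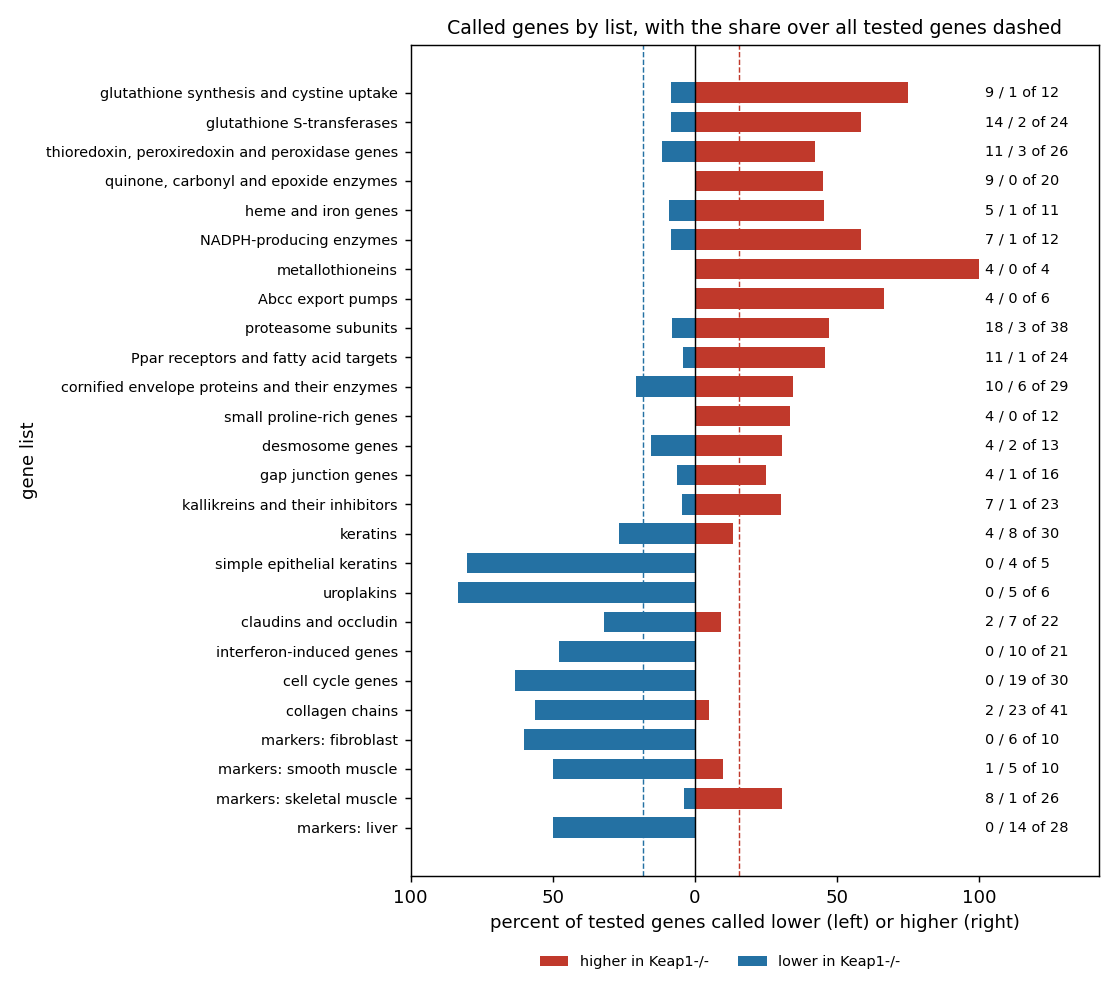
Genes called in 26 lists, in percent of the tested genes of each list, to the right for genes higher in Keap1-/- and to the left for genes lower; dashed lines mark the shares over all 18441 tested genes, 15.5% higher and 18.1% lower. Counts of higher and lower genes of the number tested stand at the right, such as 9 and 1 of 12 for glutathione synthesis and 0 and 19 of 30 for the cell cycle genes. The lists of simple epithelial keratins, uroplakins, interferon-induced genes and liver markers were chosen after their values were seen.

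Genes of squamous differentiation did not move as a block. Of 29 cornified envelope proteins and their enzymes 10 were called higher and 6 lower, of 12 small proline-rich genes 4 higher, and of 14 late cornified envelope genes 1 higher (Lce1l). The 4 small proline-rich genes were 33.3% of those tested and the late cornified envelope gene 7.14%, against 15.5% called higher over all tested genes. In the envelope list the share of higher genes was above that 15.5%, and the share of lower genes was near the 18.1% over all tested genes. Sprr2h, a small proline-rich envelope protein, read 0.51, 1.09 and 0.73 in WT and 4.02, 4.89 and 4.95 in Keap1-/- esophagi, a 14.4-fold increase (adjusted p = 1.74e-05). Casp14, the caspase of cornification, read 0.51, 0.14 and 0.13 against 2.09, 3.18 and 3.74, a 6.70-fold increase (adjusted p = 0.000283). The groups did not overlap for either gene, and Keap1-/- replicate 1 was the lowest of the 3 Keap1-/- arrays for both. Krt84, a keratin of hard keratinized epithelia, rose by 2.42 (adjusted p = 8.41e-05), and Dsg1b, a desmoglein of the upper layers, by 2.32 (adjusted p = 6.26e-05). Krt16, a keratin of hyperproliferative epidermis, rose by 1.66. With the version block 3 small proline-rich genes and 3 genes of the cornified envelope list were called higher and none lower.

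Some genes of the cornified envelope list fell, at a share near that over all tested genes. Mal is on that list but is a membrane protein of apical transport. It read 5.45, 5.92 and 5.33 in WT and 0.33, 0.43 and 0.40 in Keap1-/- esophagi, a 36.2-fold decrease (adjusted p = 2.75e-09). Scel, sciellin, an envelope precursor, read 3.75, 4.73 and 4.47 against 1.26, 3.09 and 3.15 and fell by 1.82 ± 0.43 (adjusted p = 0.00839), and Ivl, involucrin, fell by 0.97. Of 14 stefin A and cystatin genes, cysteine protease inhibitors, 3 (Cst6, Cst3 and Cstb) were called higher and 3 (Cstdc5, Stfa1 and Csta1) lower. In either direction 42.9% were called, against 33.6% of all tested genes. Cstdc5 read 9.55, 10.17 and 9.69 in WT and 7.50, 7.44 and 7.87 in Keap1-/- esophagi, a 4.59-fold decrease (adjusted p = 7.82e-06), and Csta1 fell 2.54-fold. The 2 probes of Csta1 gave differences of -2.25 and -0.44. The stefin A genes are close copies of each other, so their probes may be shared. Mal, Scel, Cstdc5, Stfa1 and Csta1 were not called with the version block.

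Genes that the study measured by PCR or named for this comparison had mixed results. Ppard, a fatty acid receptor linked to keratinocyte differentiation, read -0.07, 0.02 and 0.10 in WT and 0.48, 0.58 and 0.75 in Keap1-/- esophagi, a 1.51-fold increase (adjusted p = 0.00277). Akt2, a kinase downstream of PI3K, rose by 0.74 ± 0.18 (adjusted p = 0.0111), while its Cy5 signal alone differed by -0.31. Sbsn, suprabasin, differed by 1.32 (adjusted p = 0.0278), but lost its call without WT replicate 1 (1.34) or 3 (1.21) and without Keap1-/- replicate 2 (1.25) or 3 (1.11). Ptgs2, cyclooxygenase 2, was not well above background on any WT array and read -2.90, -2.59 and -2.78 in Keap1-/- esophagi, at least 1.52-fold higher (adjusted p = 0.0159); the call was lost without WT replicate 3 (0.44) or Keap1-/- replicate 2 (0.52). Calm4, a calmodulin-like protein of the epidermis, differed by 0.75 ± 0.28 (adjusted p = 0.0629) and Pax9, a transcription factor of esophageal fate, by -0.28 (adjusted p = 0.557). Calm4 was called without Keap1-/- replicate 1 (0.93), and the sign of Pax9 turned without WT replicate 2 (0.16).

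Basal and suprabasal keratins of the esophagus showed no common shift. Among the 10 squamous markers, Krt14 was called higher (0.98 ± 0.22, adjusted p = 0.00613) and Sox2, a fate factor, lower (-0.72, adjusted p = 0.0201). The call of Sox2 was lost without WT replicate 2 (-0.51) or 3 (-0.70) and without Keap1-/- replicate 2 (-0.61) or 3 (-0.67). The differences of Krt5 (0.42), Krt13 (0.52), Krt4 (-0.65) and Trp63 (0.01) were not called. Of 16 gap junction genes 4 were called higher and 1, Gjc1, lower. Gja1, a connexin of stratified epithelia, read 0.45, 0.84 and 0.51 in WT and 3.00, 3.41 and 3.12 in Keap1-/- esophagi, a 5.96-fold increase (adjusted p = 4.16e-06), and Gjb5 rose 3.45-fold. Krt14 was not called with the version block.

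The largest decreases included genes of simple and urothelial-type epithelia. Of 5 simple epithelial keratins, a list chosen after its values were seen, 4 were called lower. Krt19 read 2.57, 2.60 and 2.43 in WT and -4.10, -3.71 and -3.69 in Keap1-/- esophagi, an 82.6-fold decrease (adjusted p = 5.30e-10). Krt7 read 3.76, 4.39 and 3.69 against -0.81, -1.03 and -1.08, a 30.2-fold decrease (adjusted p = 1.32e-08), and Krt8 read 0.93, 0.88 and 0.05 against -3.12, -3.86 and -3.50, a 17.3-fold decrease (adjusted p = 2.36e-06). All 3 keratins fell from near or above the reference RNA to well below it, with no overlap. Krt18, the usual partner of Krt8, fell by 2.41 (adjusted p = 0.00888), a call lost with the version block, and Krt20 differed by -2.84 (adjusted p = 0.0507). The version block called Krt7, Krt8 and Krt19 lower.

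Uroplakins, membrane plaque proteins of the bladder lining, were called lower in 5 of 6 genes tested, Upk1b, Upk2, Upk3a, Upk3b and Upk3bl. This list and that of the mucins were chosen after their values were seen. Upk1b read 6.15, 7.30 and 6.69 in WT and 1.23, 0.82 and 0.42 in Keap1-/- esophagi, a 59.3-fold decrease (adjusted p = 1.80e-07). Upk3b lost its call without WT replicate 1 (-1.04) or 2 (-1.22) and without Keap1-/- replicate 1 (-0.98) or 2 (-1.37), and Upk2 was not called from the deposited log ratios. Of 8 mucins tested, 3 were called lower: Muc20 read 4.22, 5.23 and 4.61 in WT and -0.58, -0.94 and -0.89 in Keap1-/- esophagi and fell by 5.49 on the log2 scale (adjusted p = 3.37e-08), Muc4 fell 10.4-fold and Muc16 by 0.71, a call lost without any one of 5 arrays (-0.792 to -0.538). Probes of one mucin were unlike: the 6 of Muc4 gave differences from -5.59 to -0.09, and the 2 of Muc16 gave -1.39 and -0.04. The version block called 2 uroplakins and 2 mucins lower.

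Claudins seal the tight junctions between epithelial cells. Of 22 claudin and occludin genes 7 were called lower and 2 higher. Cldn7 read 3.21, 3.88 and 3.70 in WT and -0.95, -1.71 and -1.71 in Keap1-/- esophagi, a 33.2-fold decrease (adjusted p = 1.47e-07). Cldn3 fell 17.8-fold, with a Cy3 signal 2.39 log2 units lower, and Cldn8 11.5-fold. The other large decreases were of varied function. Pbp2, a member of the phosphatidylethanolamine-binding family, had the largest fitted decrease, from 6.65, 7.33 and 6.95 in WT to -0.85, -0.86 and -1.13 in Keap1-/- esophagi, a 242-fold decrease (adjusted p = 1.23e-09). Plac8 fell 114-fold, the platelet chemokine gene Ppbp 98.5-fold, the glycosyltransferase gene B3galt5 43.6-fold and the tetraspanin gene Tspan1 38.7-fold. The version block called all of these genes lower as well.

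Interferon-induced genes, a list chosen after its values were seen, were called lower in 10 of 21 tested and higher in none, with a median difference of -0.71. Ifit1bl1 read 6.49, 6.88 and 7.04 in WT and was not well above background on any Keap1-/- array, at least 87.9-fold lower (adjusted p = 1.23e-09). Oasl1, an inhibitor of interferon induction, read 0.42, 1.49 and 0.49 against -2.74, -1.86 and -1.66, a 7.40-fold decrease (adjusted p = 0.000129). Usp18, which restrains interferon signalling, fell 4.09-fold and Oasl2 5.11-fold. The count of the list was 6 without WT replicate 3 and 4 with the version block. Of 12 tested neutrophil and macrophage markers 6 were called lower and 1 (S100a8) higher. Their mean was 1.24, 2.37 and 1.46 on the WT arrays and 1.32, 0.59 and 0.57 on the Keap1-/- arrays. The groups overlapped through Keap1-/- replicate 1, the highest Keap1-/- array for these markers but the lowest for Oasl1. Ltf, lactoferrin, a product of neutrophil granules and of secretory epithelia, fell 40.8-fold (adjusted p = 6.16e-08), while its Cy3 signal, which comes from the common reference, fell by 5.39 log2 units. The part of these markers in the decreases was not tested.

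Levels in adult WT esophageal epithelium are set beside those at P7 without a test, since the adult samples are epithelium and the P7 samples whole esophagus. Krt19 read -3.92, -3.69 and -3.96 in the adult, in the range of Keap1-/- esophagus at P7. Muc20 read -0.50, -0.52 and -0.87, Mal 0.09, -0.06 and 0.00 and Krt7 -2.13, -1.60 and -1.89 in the adult, each far below WT at P7. In the other direction, Adh7 read 6.44, 6.14 and 5.97, Ada, adenosine deaminase, 6.32, 6.74 and 6.45, and Ces1f 4.29, 5.22 and 5.34 in the adult. At P7 Ada read -1.77, -1.53 and -1.76 in WT and 3.64, 4.38 and 4.39 in Keap1-/- esophagi, a 56.6-fold increase (adjusted p = 1.06e-07). Gclc read 1.05, 1.04 and 0.95 and Slc7a11 1.96, 1.06 and 0.99 in the adult, above WT at P7 and below every Keap1-/- array.

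**Figure D4:**
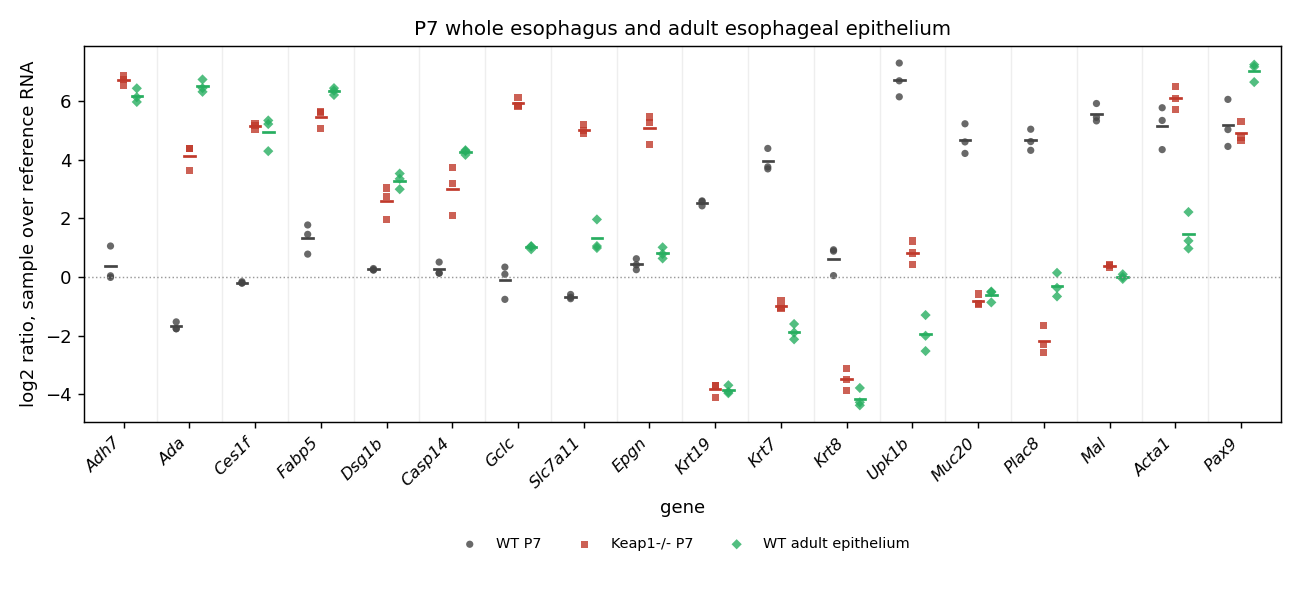
Selected genes in whole esophagus of WT and Keap1-/- mice at P7 and in adult WT esophageal epithelium. The y axis is the log2 ratio of sample over reference RNA; each point is 1 array and each short bar the mean of 3. Krt19, Krt7, Krt8 and Muc20 were low on the Keap1-/- and the adult arrays, whereas Gclc, Slc7a11 and Epgn were highest on the Keap1-/- arrays, with Gclc near 1 in the adult and 5.83 to 6.13 in Keap1-/-.

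Ligands of the epidermal growth factor receptor and wound response genes were called higher in 7 and lower in 5 of 26 tested, the latter Il1a, Areg, Hbegf, Tslp and Egfr. In either direction 46.2% were called, against 33.6% of all tested genes. The share of lower genes was near the 18.1% over all tested genes. Epgn, epigen, a receptor ligand of the skin, read 0.25, 0.62 and 0.42 in WT and 4.52, 5.28 and 5.46 in Keap1-/- esophagi, a 25.2-fold increase (adjusted p = 1.02e-07). Areg and Hbegf, genes of related ligands, were lower by 1.24 and 1.19 log2 units. Il1f9 (now Il36g), an epithelial interleukin of the IL-1 family, read 0.59, 0.32 and 0.22 in WT and 3.76, 4.49 and 4.86 in Keap1-/- esophagi, a 15.9-fold increase (adjusted p = 1.02e-05), a call lost from the deposited log ratios, while Il1a fell by 1.98 on the log2 scale. The higher genes of the list numbered 12 without Keap1-/- replicate 1, 4 without WT replicate 3 and 4 with the version block.

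Fatty acid receptors and their targets were called higher in 11 of 24 tested and lower in 1, Ehhadh. Fabp5, the epidermal fatty acid binding protein, read 1.78, 1.46 and 0.78 in WT and 5.07, 5.65 and 5.61 in Keap1-/- esophagi, a 17.2-fold increase (adjusted p = 2.53e-05). The receptor gene Pparg rose 3.18-fold and Ppara 2.42-fold. Of 9 fat cell markers 8 had a difference above 0, with a median of 0.61, and their mean was 1.87, 2.26 and 1.59 on the WT arrays and 2.22, 3.19 and 3.23 on the Keap1-/- arrays. Among these markers 1 was called, Cfd, which rose by 3.65, and their part in the fatty acid list was not tested. The count of the fatty acid list was 7 without Keap1-/- replicate 2 and 4 with the version block. Of 21 PI3K and Akt genes 3 were called higher (14.3%, near the 15.5% over all tested genes), Pdpk1, Akt2 and Pik3r2, and none lower; the version block called 1.

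Of 30 cell cycle genes 19 were called lower and none higher, and all 30 differences were below 0, with a median of -0.77. Mcm6, a subunit of the replicative helicase, read -0.47, -0.44 and -0.48 in WT and -1.43, -2.38 and -2.51 in Keap1-/- esophagi, a 3.12-fold decrease (adjusted p = 0.00121), and Ccnb1, cyclin B1, fell 2.85-fold. Keap1-/- replicate 1 was nearer to WT than the other Keap1-/- arrays for both genes. The count was 29 without that array, 5 without Keap1-/- replicate 2, 7 with the version block and 7 with median centring. Against Nrf2-/-Keap1-/- instead of WT, 7 of the 30 genes were called lower and 0 higher.

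Of 41 collagen chains 23 were called lower and 2, Col22a1 and Col20a1, higher, with a median difference of -0.54. Col1a1 read 1.34, 1.97 and 1.65 in WT and 0.28, -0.32 and 0.22 in Keap1-/- esophagi, a 3.01-fold decrease (adjusted p = 0.000153), Col4a5, a basement membrane chain, fell 4.23-fold, and Col8a2 4.86-fold. Lum, lumican, which organizes collagen fibrils, fell 6.43-fold (adjusted p = 0.000288). Fibroblast markers moved with them: 6 of 10 were called lower and none higher, 3 of them collagens themselves (Col1a1, Col1a2 and Col3a1), and their mean was 1.70, 1.99 and 1.94 on the WT arrays and 1.30, 0.76 and 0.86 on the Keap1-/- arrays. Their part in the collagen decreases was not tested. With the version block 1 collagen, Col8a2, and 1 fibroblast marker were called lower, and Col1a1, Col4a5 and Lum were not.

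Muscle markers split. Of 10 smooth muscle markers 5 were called lower and 1, Des, which skeletal muscle shares, higher. Cnn1, calponin, read 6.40, 6.18 and 5.49 in WT and 3.75, 4.64 and 4.83 in Keap1-/- esophagi, a 3.07-fold decrease (adjusted p = 0.00208). Of 26 skeletal muscle markers 8 were called higher and 1, Myh3, lower, and Mb, myoglobin, read 2.99, 1.64 and 3.28 in WT and 4.18, 3.86 and 4.06 in Keap1-/- esophagi (adjusted p = 0.00829). WT replicate 2 was the lowest array for Mb. The skeletal count was 3 without Keap1-/- replicate 1, 14 without WT replicate 3 and 1 with the version block, which called no smooth muscle marker. Median centring called 19 skeletal muscle markers higher and 1 smooth muscle marker lower. Against Nrf2-/-Keap1-/- instead of WT, 0 of the 10 smooth muscle markers were called lower and 1 higher.

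Liver markers were called lower in 14 of 28 tested, in 5 with the version block, in 6 with outlier-marked spots left out and in 19 with the processed signals. They too were listed after their values were seen. Fabp1, the liver fatty acid binding protein, read 7.11, 7.92 and 5.63 in WT and was not well above background on any Keap1-/- array, at least 77.8-fold lower (adjusted p = 0.000341). Ambp, a plasma protein gene, read 3.53, 7.45 and 4.70 in WT and -0.46, 0.12 and -0.15 in Keap1-/- esophagi (adjusted p = 0.00324), a call lost with the version block. The WT arrays were spread widely for both genes while the Keap1-/- arrays lay together near 0. The stomach markers were called in none of 8, and in 3 without WT replicate 3, with WT replicates 1 and 2 high and WT replicate 3 at the level of the Keap1-/- arrays. The 5 simple epithelial keratins averaged 1.83, 1.11 and 0.36 on WT replicates 1, 2 and 3, in the order of the stomach markers, and -3.21, -3.01 and -2.87 on the Keap1-/- arrays, and the part of stomach tissue in their difference was not tested.

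**Figure D5:**
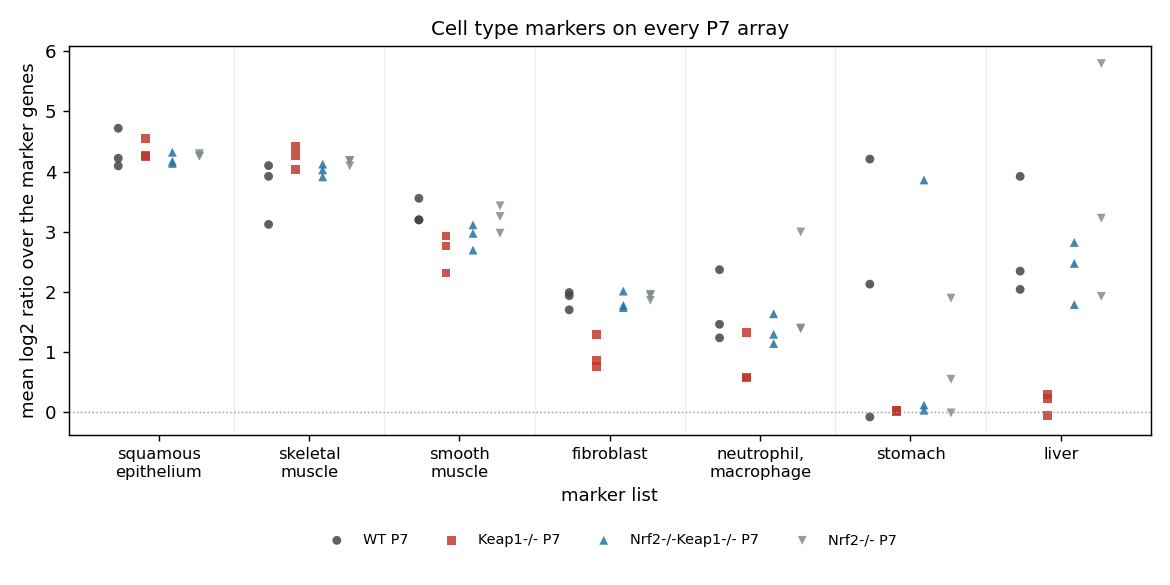
Mean log2 ratio over the tested marker genes of 7 cell types or tissues on each of the 12 P7 arrays, by genotype. Squamous epithelial markers ran from 4.10 to 4.72 in WT and from 4.25 to 4.56 in Keap1-/-, fibroblast markers were lower on each Keap1-/- array, and liver markers ran from 2.04 to 3.92 in WT and from -0.05 to 0.30 in Keap1-/-.

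Keap1-/- was next set against Nrf2-/-Keap1-/- esophagus, which lacks Keap1 as well as Nrf2, with 6187 genes (33.6%) called, 2814 higher (15.3%) and 3373 lower (18.3%). Both comparisons share the Keap1-/- arrays, and the Nrf2-/-Keap1-/- arrays were again on other slides and read with the earlier version. On the Nrf2-/-Keap1-/- arrays liver markers averaged 2.82, 2.47 and 1.79, stomach markers 0.12, 3.86 and 0.04 and fat cell markers 5.15, 3.97 and 4.92. The Keap1-/- arrays ran from -0.05 to 0.30, 0.00 to 0.03 and 2.22 to 3.23 for these lists. The part of these tissues in the calls was not tested. Gclc read -0.32, -0.46 and -0.65, Gstm1 -1.74, -1.56 and -1.48, Srxn1 -1.27, -1.52 and -1.52 and Nqo1 -2.65, -1.67 and -2.56 in Nrf2-/-Keap1-/- esophagi. Each of these levels was below every Keap1-/- array, and Keap1-/- was higher by 6.41 for Gclc (adjusted p = 1.86e-06), 6.68 for Gstm1 (adjusted p = 1.62e-09), 4.67 for Srxn1 (adjusted p = 1.15e-08) and 6.33 for Nqo1 (adjusted p = 6.64e-06). Krt19 read 2.89, 3.09 and 3.01 and Upk1b 6.85, 6.25 and 6.42 without both genes, where Keap1-/- was lower by 6.83 for Krt19 (adjusted p = 2.50e-10) and by 5.68 for Upk1b (adjusted p = 2.73e-07).

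The difference between Keap1-/- and WT was tested against that between Nrf2-/-Keap1-/- and Nrf2-/-, that is, loss of Keap1 with and without Nrf2. The differences were unequal in 2790 genes (15.1%). For Gclc the excess was 6.50 ± 0.57 (adjusted p = 5.14e-05), for Gstm1 6.04 (adjusted p = 9.40e-08), for Adh7 6.70 (adjusted p = 1.32e-06) and for Krt19 -6.71 (adjusted p = 1.23e-08). Mb (1.31, adjusted p = 0.0832), Mt4 (3.43, adjusted p = 0.149), Krt14 (0.84, adjusted p = 0.0904) and Ambp (-4.04, adjusted p = 0.096) did not pass this test. Cfd, the fat cell marker, read 5.55, 5.92 and 6.67 in Nrf2-/-Keap1-/- esophagi, above the 3.55, 4.61 and 4.94 of Keap1-/-, and was unlike the genes above (excess 0.71, adjusted p = 0.455). The 3 Keap1-/- arrays alone carry the other slide, scan and version in this test too, and the part of liver, stomach and fat tissue in it was not tested.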

How the data were processed

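RNA of individual esophagi was hybridized on 2-colour Agilent arrays, sample in Cy5 and Universal Mouse Reference RNA in Cy3, with no dye swap. The deposited scanner tables hold spot intensity values (mean signal, local background median) and outlier marks from Agilent Feature Extraction 10.5.1.1 or 10.7.3.1 per the file headers; the submitters' processing notes give version 9.1, and the study's methods name a GenePix scanner. The authors also deposited log10 ratios of Cy5 over Cy3, used as an alternative. Groups follow the labels' genotype and age.

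Intensities were background-corrected (normexp, offset 50) and normalized by loess within each array, giving log2 ratios. Spots whose local background exceeded 5 times the array's median were left out and outlier-marked spots were kept. Replicate spots were averaged per probe, then probes per gene, with missing probe values filled from probe and array means. A gene was tested if at least 3 of the 12 P7 arrays showed a probe well above background in Cy5 and every group had at least 2 values. Of 41174 probes, 27434 were named by accession, 5507 by symbol and 1153 by synonym through RefSeq, 6842 kept the file's name and 238 had none. limma 3.58.1 in R 4.3.3 fitted the 4 groups at P7, with p-values adjusted by the Benjamini-Hochberg method over all tested genes and genes called at 0.05 or lower. The methods used SAM, which rests on regroupings of the samples and was not run. A gene not well above background on any array of a group has a fold bound, the smallest of the fold of the ratios, that of Cy5 alone and that of the brightest probe in Cy5 against its background floor, a choice made after the values were seen; with no dye swap, single-channel folds are open to dye bias. Replicates are separate animals. The script was tested on simulated data. Alternatives covered background correction, normalization, filters, probes, arrays in the fit, blocks and each array left out.

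The comparison, the gene lists and the tests were chosen with earlier results of these data known, and the lists of uroplakins, mucins, fatty acid binding, retinoid, interferon, simple keratin and liver genes after their values were seen. Named were Keap1 and Nfe2l2, the 12 largest increases and decreases with no overlap, the 4 largest called changes of each list, genes the study measured, textbook Nrf2 targets and muscle genes; some of these are not reported here. Other genes, most of them members of small counts, were chosen after their values were seen. Mif and Psmc3ip, which only share a name with a list's genes, were taken out of the stomach and proteasome lists.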

Additional observations from a re-analysis of the deposited data

Results flagged for a closer look

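The difference between Keap1-/- and WT was unlike that between Nrf2-/-Keap1-/- and Nrf2-/- in 2790 genes by limma's interaction test, 1319 with a positive and 1471 with a negative excess, and 2701 of them were also called between Keap1-/- and WT. The Keap1-/- arrays alone were on the other slide, scan and software version, so these and the genotype cannot be told apart.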

How the results depend on the processing

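The count of called genes between Keap1-/- and WT stayed within 1.5 times of 6203 under each alternative that was run other than the version block and the 2-fold minimum, which left 1540 genes, 740 higher and 800 lower; scan as a random block could not be fitted. Leaving out 1 array gave 4271 to 6385 genes (2003 to 2886 higher, 2268 to 3499 lower), and 4239 to 6790 against Nrf2-/-Keap1-/- (1967 to 3098 higher, 2272 to 3692 lower). Median centring called 5132 genes higher. The software version as a block, added after the data were seen, called 1517 genes (854 higher, 663 lower; 1343 shared with the 6203) and 1554 against Nrf2-/-Keap1-/- (875 higher, 679 lower). The replicate block called 6004 genes; same-numbered arrays deviated with correlations of 0.0757, 0.239 and -0.161, so the numbers do not pair the samples. With outlier-marked spots left out, 4682 of 15741 tested genes were called.

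Differences that turned sign were those of Akt2 (-0.31 from Cy5 alone, added after the data were seen), Calm4 (-0.30 from the processed signals and from the deposited log ratios), Pik3r2 (-0.0394 from Cy5 alone), Nfe2l2 (0.31 with median centring, 0.97 without outlier-marked spots, 0.0824 with the version block, 0.18 from Cy5 alone and, with 1 array left out, -0.203 to 0.0554) and Pax9 (0.0400 with median centring, 0.28 with the version block and, with 1 array left out, -0.641 to 0.161); the cause was not tested. Calls were also lost with 1 array left out for Abcc5 (0.361 without WT replicate 2, 0.284 without WT 3, 0.31 without Keap1-/- 2 and 0.333 without Keap1-/- 3), Ehhadh (-1.03 without WT 1, -1.80, -1.66 and -1.60 without Keap1-/- 1, 2 and 3), Lce1l (0.522 without Keap1-/- 3 to 0.808 without WT 2, lost without each array but Keap1-/- 1), Muc16 (-0.792 without Keap1-/- 3 to -0.538 without WT 2, lost without each array but WT 1) and S100a8 (2.74 without WT 1 to 3.69 without Keap1-/- 2, lost without each array but WT 2). Dim genes have only bounds, so signal over background limits Slc7a11, Ces1f, Ces1g, Aldh3a1, Ptgs2, Ifit1bl1 and Fabp1.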
